A study of Arabidopsis thaliana with 12 samples.

Results

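The genes described here are the 33 xyloglucan endotransglucosylase/hydrolase genes of Arabidopsis thaliana, *XTH1* to *XTH33*, and 19 alpha-expansin genes, *EXPA1* to *EXPA18* and *EXPA20*. They were chosen by family and gene identifier, and are 52 of the 37336 genes in the count tables. The study asked which genes LEAFY (LFY), a transcription factor that directs flower formation, controls in root explants. All 12 libraries came from 35S:LFY-GR plants in the L.er background with wild-type genotype otherwise, in which LFY is fused to the steroid binding domain of the glucocorticoid receptor, is driven by the viral 35S promoter in most cells, and acts in the nucleus once dexamethasone is given. Roots of seedlings grown for 3 weeks were placed on callus inducing medium (CIM) for 5 days, and dexamethasone at 5 µM or mock solution was applied for the last 1, 6, or 24 h. There were thus 6 groups, which were dexamethasone 1 h, mock 1 h, dexamethasone 6 h, mock 6 h, dexamethasone 24 h, and mock 24 h, each with 2 biological replicates lettered A and B. Every group carried the transgene, and no group without it was analysed here, so that a response to the steroid alone and a response to LFY-GR cannot be told apart.

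The primary wall of a growing plant cell is a network of cellulose microfibrils tied together by xyloglucan and embedded in pectin. XTH proteins cut xyloglucan chains and rejoin them to other chains, or, in a small class that holds *XTH31* and *XTH32*, cut them without rejoining. Alpha-expansins loosen the contacts between wall polymers at acidic pH without cutting them, and plasma membrane proton pumps supply the acid. Both families are known for cell enlargement in roots, in root hairs, in lateral root emergence, and at sites of organ initiation.

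Libraries held 18511462 to 66789371 reads on genes, and the 4 libraries of 24 h were the shallowest, at 18511462 to 25879110. Expression of *AP1*, a floral identity gene and known LFY target, was 14.9 and 9.79 CPM (read counts relative to the size of the library, scaled by the TMM method) after 24 h of dexamethasone and 0.156 and 0.0457 CPM after mock, with the libraries of both treatments well apart. Markers of callus founder cells and root primordia were found in all libraries at unequal levels. *LBD16* was between 142 and 226 CPM, whereas *LBD17* had 17.3 and 15.8 CPM in mock 6 h. Replicates A and B differed by a root mean square of 0.445 in log2 CPM in mock 6 h and of 0.223 in dexamethasone 6 h. The difference between replicates A and B ran alike over all genes in dexamethasone 1 h, mock 1 h and mock 6 h, with correlations of 0.51 to 0.70 across 21241 genes. Genes are not independent replicates.

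The members spanned a wide range of expression. Levels of different genes are compared here as RPKM, reads scaled to the size of the library and to the kilobases of merged exon, averaged over 12 libraries. Among the XTH genes, *XTH24* (AT4G30270), also known as *MERI5* from meristems, was most abundant with a mean of 523 RPKM and supplied 28.0% to 53.3% of the RPKM of its family in single libraries. It was followed by *XTH4* (AT2G06850) with 167 RPKM and *XTH11* (AT3G48580) with 117 RPKM. Among the alpha-expansins, *EXPA4* (AT2G39700) was most abundant with 471 RPKM and 46.9% of the family, followed by *EXPA1* (AT1G69530) with 249 RPKM and *EXPA6* (AT2G28950) with 134 RPKM. The ranges of *XTH4* and *XTH11* over libraries overlapped, at 90.8 to 272 RPKM and 81.9 to 165 RPKM. The order changed with time, since *XTH22* and *XTH18*, with means of 109 and 107 RPKM, were at 210.1 to 270 RPKM in the 4 libraries of 1 h, all above *XTH11*, and at 5.14 to 11.3 RPKM in the 4 libraries of 24 h. Ranges overlapped too for *EXPA1* and *EXPA6*, at 111 to 495 RPKM and 106 to 159 RPKM.

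**Figure D1:**
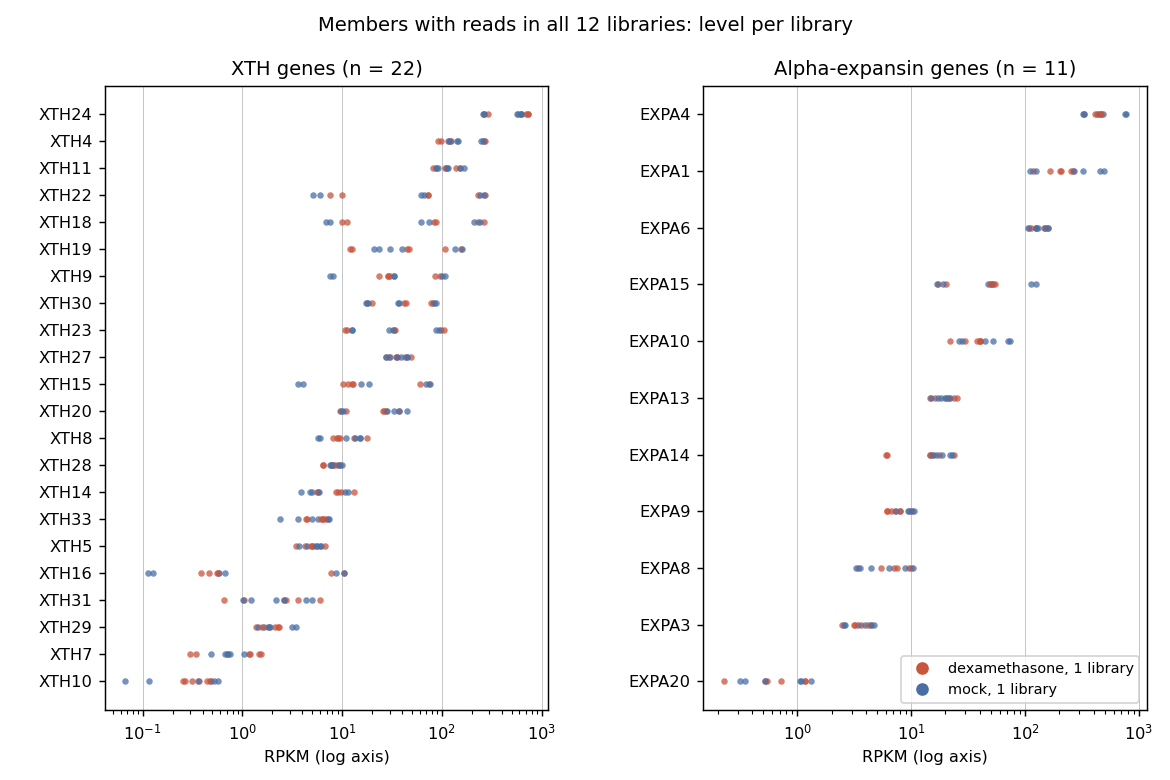
RPKM of each member with reads in all 12 libraries, on a log axis, for 22 XTH genes and 11 alpha-expansin genes ordered by their mean. Each point is 1 library, with dexamethasone in red and mock in blue, and *XTH22*, *XTH18* and *XTH16* spread over a far wider range than *XTH24* or *EXPA6*.

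Reads were found in all 12 libraries for 22 XTH genes and 11 alpha-expansin genes. *XTH2*, *XTH3*, *XTH21*, *EXPA5* and *EXPA12* had at most 3 reads in every library and were not detected at this depth. The other 8 XTH genes had at most 36 reads and the other 6 alpha-expansins at most 106 reads in any library. They include *XTH12*, *XTH13*, *XTH26*, *EXPA7* and *EXPA18*, all known from root hairs. Another root hair gene, *XTH14*, was at 4.54 CPM or more in all libraries. Of the root hair markers *COBL9* and *RSL4* were under 1 CPM in every library, *LRX1*, *PRP1* and *PRP3* reached 1.32, 1.26 and 3.54 CPM, and *RHD6* was at 25.4 to 38.9 CPM. The overlap with other genes limits 2 members, since reads that fit both genes were not counted. Of the exon length of *EXPA20* 86.3% is shared with AT4G38215, and of *XTH15* 31.6% with AT4G14120.

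With time the summed level of XTH genes fell and that of alpha-expansins rose, the latter more in mock. XTH genes together had 3103 and 2842 CPM in dexamethasone and 3004 and 2796 CPM in mock at 1 h, 1810 and 1827 CPM in dexamethasone and 1647 and 1594 CPM in mock at 6 h, and 846 and 862 CPM in dexamethasone and 882 and 890 CPM in mock at 24 h. Alpha-expansins together had 1012 and 1307 CPM in dexamethasone and 1005 and 1038 CPM in mock at 1 h, 1437 and 1432 CPM in dexamethasone and 1488 and 1679 CPM in mock at 6 h, and 1477 and 1447 CPM in dexamethasone and 2584 and 2448 CPM in mock at 24 h. At 24 h the alpha-expansin sum after dexamethasone was 58.1% of that after mock, with no overlap of libraries, whereas the XTH sum was 96.4% of mock. Most of the alpha-expansin difference lay in *EXPA4*, with means of 697 CPM after dexamethasone and 1144 CPM after mock, and in *EXPA1*, with 315 and 739 CPM. *EXPA6*, with 238 and 245 CPM, differed little. With 2 libraries against 2, an exact permutation test of a single sum cannot give a two-sided p under 0.333, so that the sums are given as a description. In bulk tissue, fewer cells that express a gene and less RNA per cell cannot be told apart.

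**Figure D2:**
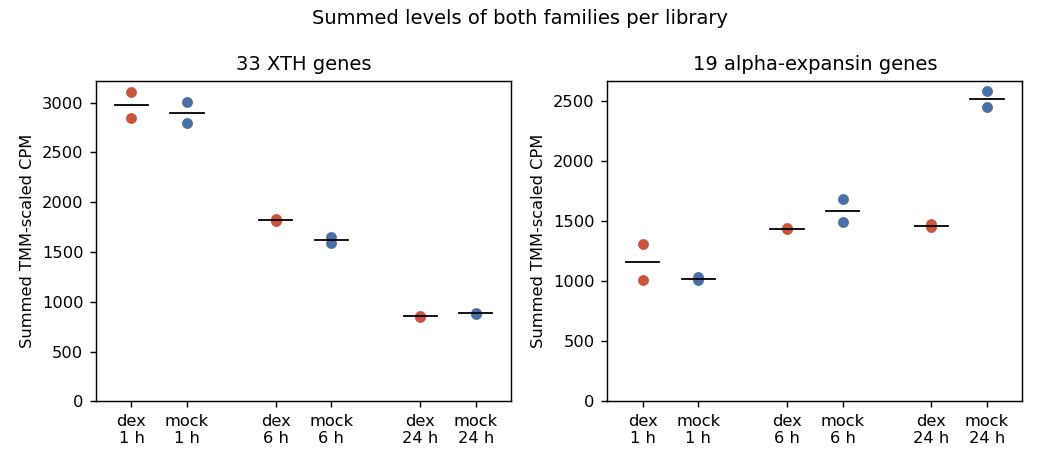
Summed TMM-scaled CPM of the 33 XTH genes and the 19 alpha-expansin genes in each library, from 0, by group. Points are single libraries and bars are group means, and the alpha-expansin sum is 2584 and 2448 CPM in mock at 24 h, above the other 10 libraries, while the XTH sum is lowest in both groups of 24 h.

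After 24 h, 5 alpha-expansin genes fell in dexamethasone relative to mock and none rose. Of 19 alpha-expansins 11 passed the filter on low counts, and 5 of these were called fallen at a Benjamini-Hochberg adjusted p under 0.01 in edgeR's quasi-likelihood test, against 8.76% of the 19288 genes tested. The median log2 fold change of the 11 tested was -0.56, against 0.0051 for all genes tested. The genes were *EXPA1*, *EXPA4*, *EXPA10*, *EXPA14* and *EXPA15*, and they include both of the most abundant members of the family.

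*EXPA14* (AT5G56320, chromosome 5, 22808641 to 22810747, TAIR10.1), which is known to act downstream of the lateral root regulator *LBD18*, had 10.2 and 10.6 CPM in dexamethasone and 37.7 and 38.9 CPM in mock at 24 h. This was a log2 fold change of -1.88 ± 0.11 (SE, n = 2 per group, edgeR adjusted p = 6.16e-16), which is 27.2% of mock. In the 8 libraries of 1 and 6 h its expression lay between 24.9 and 40.7 CPM in both treatments, so that only the dexamethasone libraries of 24 h stood apart. The marker *LBD18* itself had 191 and 173 CPM in dexamethasone and 302 and 296 CPM in mock at 24 h. The log2 fold change of *LBD18* was -0.71 ± 0.06 (SE, n = 2 per group, edgeR adjusted p = 1.73e-12), and its part in the result for *EXPA14* was not tested.

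*EXPA1* (chromosome 1, 26141726 to 26143538), an expansin of growing leaves and guard cells, had 312 and 318 CPM in dexamethasone and 767 and 711 CPM in mock at 24 h. The log2 fold change was -1.22 ± 0.05 (SE, n = 2 per group, edgeR adjusted p = 1.38e-19), the smallest adjusted p among the members. *EXPA15* (AT2G03090, chromosome 2, 916806 to 918671) had 78.4 and 70.2 CPM in dexamethasone and 180.0 and 162 CPM in mock, and its log2 fold change was -1.20 ± 0.07 (SE, n = 2 per group, edgeR adjusted p = 9.05e-17). Its level after 24 h of dexamethasone overlapped its levels at 6 h, which were 71.9 and 74.3 CPM in dexamethasone and 68.3 and 74.0 CPM in mock.

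*EXPA10* (AT1G26770, chromosome 1, 9259432 to 9261313), known from leaf growth, had 63.4 and 59.4 CPM in dexamethasone and 116 and 111 CPM in mock at 24 h. For *EXPA10* the log2 fold change was -0.88 ± 0.07 (SE, n = 2 per group, edgeR adjusted p = 4.91e-13). *EXPA4* (chromosome 2, 16543832 to 16545746) had 702 and 692 CPM in dexamethasone and 1164 and 1123 CPM in mock, with a log2 fold change of -0.71 ± 0.05 (SE, n = 2 per group, edgeR adjusted p = 1.47e-13). After 6 h of dexamethasone *EXPA10* had 62.6 and 63.6 CPM and *EXPA4* 649 and 647 CPM. After 24 h of dexamethasone *EXPA4* was thus higher in both libraries than after 6 h, and *EXPA10* overlapped its level at 6 h. *EXPA1* had 407 and 391 CPM after 6 h of dexamethasone and was lower after 24 h. In all 5 genes the lower mock library was above the higher dexamethasone library at 24 h. The 5 genes were called on the same libraries, so that this adds no separate support. Of 32 members tested at 24 h, 8 were higher and 11 lower in dexamethasone without overlap, and at 6 h 11 and 18 of 40 were. No share over all genes was computed for these counts, so that they are not read as a response of the members.

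The other 6 alpha-expansins tested were not called, with log2 fold changes from -0.56 in *EXPA20* to 0.10 in *EXPA13*. Among them was the abundant *EXPA6*, with 241 and 235 CPM in dexamethasone and 253 and 238 CPM in mock at 24 h. Its log2 fold change was -0.04 ± 0.05 (SE, n = 2 per group, edgeR adjusted p = 0.72).

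After 24 h, 5 XTH genes rose in dexamethasone relative to mock at 24 h and 2 fell. Of 33 XTH genes 21 were tested, so that 23.8% were called risen, against 6.77% of all genes tested, and 9.52% fallen, a share near the 8.76% given above. The median log2 fold change of the 21 was 0.04. The genes that rose were *XTH9*, *XTH15*, *XTH18*, *XTH22* and *XTH33*, and those that fell were *XTH4* and *XTH19*. Of the 5 that rose relative to mock, only *XTH33* was higher in both libraries than after 6 h of dexamethasone, when it had 5.25 and 5.42 CPM.

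*XTH9* (AT4G03210, chromosome 4, 1415617 to 1417444), known from shoot apices and, like *XTH4*, from wood formation, had 44.5 and 35.9 CPM in dexamethasone and 11.5 and 12.2 CPM in mock at 24 h. The log2 fold change was 1.76 ± 0.11 (SE, n = 2 per group, edgeR adjusted p = 8.71e-15), 3.39-fold of mock. In dexamethasone *XTH9* had 147 and 131 CPM at 1 h and 44.2 and 46.2 CPM at 6 h. Its level after 24 h of dexamethasone thus overlapped that at 6 h and was below that at 1 h. *XTH15* (AT4G14130, chromosome 4, 8137020 to 8138392), also known as *XTR7*, had 12.2 and 13.7 CPM in dexamethasone and 4.32 and 4.84 CPM in mock. The log2 fold change was 1.51 ± 0.18 (SE, n = 2 per group, edgeR adjusted p = 1.65e-08), 2.85-fold of mock. In dexamethasone *XTH15* had 73.6 and 90.5 CPM at 1 h and 15.2 and 15.4 CPM at 6 h, all above its level at 24 h. The overlapping gene AT4G14120 had 136 and 175 reads in dexamethasone and 167 and 165 reads in mock at 24 h.

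*XTH33* (AT1G10550), whose protein is held in the plasma membrane, had 7.83 and 7.44 CPM in dexamethasone and 2.88 and 4.34 CPM in mock at 24 h, with a log2 fold change of 1.1 ± 0.23 (SE, n = 2 per group, edgeR adjusted p = 0.0003). Without replicate A of mock 24 h the adjusted p was 0.016. *XTH22* (AT5G57560), the touch induced gene *TCH4*, had 12 and 16 CPM in dexamethasone and 8.17 and 9.50 CPM in mock, with a log2 fold change of 0.68 ± 0.16 (SE, n = 2 per group, edgeR adjusted p = 0.0013). *XTH18* (AT4G30280), an XTH of roots, had 12.7 and 14.3 CPM in dexamethasone and 8.79 and 9.59 CPM in mock, with a log2 fold change of 0.57 ± 0.15 (SE, n = 2 per group, edgeR adjusted p = 0.0042).

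The calls of *XTH22* and *XTH18* were the least firm. Neither was called by DESeq2, in the fit of all 12 libraries, or without replicate A of mock 24 h or replicate B of dexamethasone 24 h, and the adjusted p then reached 0.098 for *XTH22* and 0.059 for *XTH18*. With single libraries left out the log2 fold change of *XTH22* ran between 0.45 and 0.87. For both genes the libraries of the 2 treatments did not overlap, which adds no support beyond the calls made on the same libraries.

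*XTH4* (chromosome 2, 2763449 to 2765743), the second most abundant XTH gene by its mean over libraries, had 159 and 147 CPM in dexamethasone and 237 and 229 CPM in mock at 24 h. This gave a log2 fold change of -0.60 ± 0.06 (SE, n = 2 per group, edgeR adjusted p = 1.75e-10). *XTH19* (AT4G30290), an auxin inducible gene of roots, had 16.9 and 15.9 CPM in dexamethasone and 28.1 and 31.4 CPM in mock, with a log2 fold change of -0.85 ± 0.11 (SE, n = 2 per group, edgeR adjusted p = 1.36e-07). In the fit of all 12 libraries its adjusted p was 0.012.

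**Figure D3:**
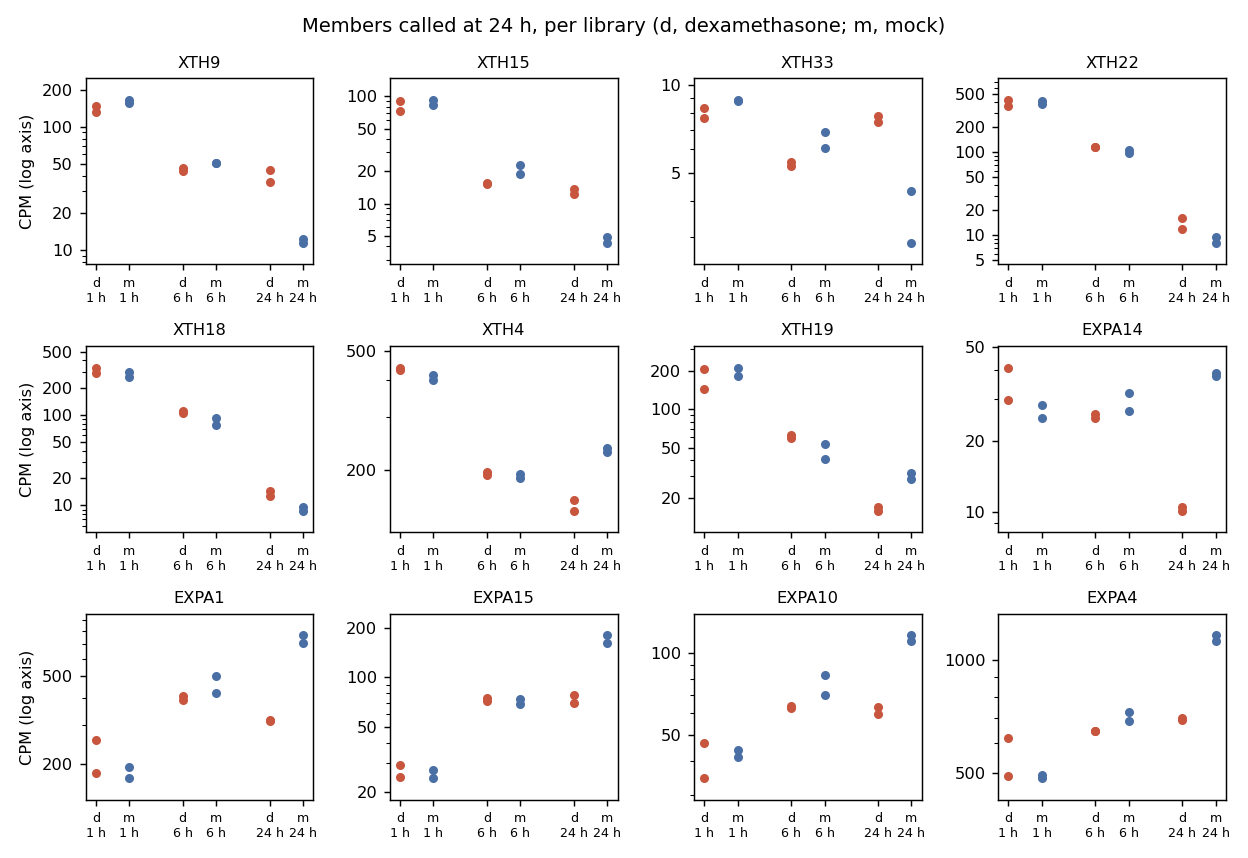
CPM of the 12 members called at 24 h in each library, on a log axis with its own range in each panel, with dexamethasone in red left of mock in blue at 1, 6, and 24 h. Points are single libraries, and at 24 h the 2 treatments are apart in every panel, with the 5 alpha-expansins lower in dexamethasone and *XTH9*, *XTH15*, *XTH33*, *XTH22* and *XTH18* higher.

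*XTH18* and *XTH19* are neighbours on the minus strand of chromosome 4, at 14825757 to 14827211 and 14828712 to 14830224, beside *XTH24* at 14819192 to 14820595. Their transcripts are 85.8% identical over 1120 aligned bases, yet relative to mock *XTH18* was called risen and *XTH19* fallen after 24 h of dexamethasone. The call of *XTH18* was lost in 5 of 11 alternatives and that of *XTH19* in 1 of 11. The ratio of *XTH18* to *XTH19* in RPKM was 0.798 and 0.946 in dexamethasone and 0.331 and 0.323 in mock at 24 h. It lay between 1.5 and 2.14 in all 8 libraries of 1 and 6 h. Reads that match both genes equally well were not counted, and the share of such reads was not measured. *XTH24*, the third gene of the run, had 318 and 352 CPM in dexamethasone and 315 and 322 CPM in mock at 24 h, and its log2 fold change was 0.08 ± 0.05 (SE, n = 2 per group, edgeR adjusted p = 0.34).

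The 250 bases before the annotated start of *XTH18* (chr4:14827212-14827461, minus strand, RefSeq TAIR10.1) and of *XTH19* (chr4:14830225-14830474, minus strand) are shown. These similar neighbours were called in opposite directions relative to mock. Capitals mark the longest runs that both windows share, which are 2 runs of 9 bases. One begins 39 bases before the start of *XTH18* and 20 bases before that of *XTH19*, and the other 27 and 192 bases before.

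XTH18: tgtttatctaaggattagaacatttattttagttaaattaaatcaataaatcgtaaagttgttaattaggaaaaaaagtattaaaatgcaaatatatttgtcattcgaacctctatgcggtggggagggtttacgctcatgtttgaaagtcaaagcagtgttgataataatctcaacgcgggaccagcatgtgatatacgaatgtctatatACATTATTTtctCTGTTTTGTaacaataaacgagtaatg

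XTH19: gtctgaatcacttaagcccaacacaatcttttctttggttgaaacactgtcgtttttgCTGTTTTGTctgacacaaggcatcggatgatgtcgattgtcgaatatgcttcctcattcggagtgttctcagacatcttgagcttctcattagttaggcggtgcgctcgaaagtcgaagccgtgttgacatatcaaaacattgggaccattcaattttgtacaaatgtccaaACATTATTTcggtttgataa

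Motifs were searched on both strands of the same 250 bases for all members and for 27443 protein coding genes. The core of the LFY motif, CCANTGG, was found before 1 of 52 members, *XTH29*, and before 3.06% of all genes. The auxin response element TGTCTC was found before 2 XTH genes and 4 alpha-expansins (*EXPA5*, *EXPA6*, *EXPA7* and *EXPA10*), 11.5% of the members against 10.9% of all genes. The brassinosteroid response element CGTGTG was found before 7 members, among them *EXPA1*, *EXPA2* and *EXPA6*, 13.5% against 5.37% of all genes. The G-box CACGTG was found before none of the members and before 6.49% of all genes, and TATAAA, the letters of a TATA box, before 55.8% of the members and 47.3% of all genes. The 5 motifs do not overlap one another in the windows printed here. The window of *XTH29* (chr4:10404394-10404643, minus strand), with the LFY core in capitals, and that of *EXPA10* (chr1:9259182-9259431, plus strand), with the auxin element in capitals, are shown as the only member with the LFY core and the only member called at 24 h with the auxin element.

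XTH29: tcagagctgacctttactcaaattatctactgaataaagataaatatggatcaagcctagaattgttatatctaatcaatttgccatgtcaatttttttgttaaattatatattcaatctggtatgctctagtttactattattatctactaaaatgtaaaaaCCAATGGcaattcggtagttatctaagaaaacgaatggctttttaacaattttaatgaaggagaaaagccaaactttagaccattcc

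EXPA10: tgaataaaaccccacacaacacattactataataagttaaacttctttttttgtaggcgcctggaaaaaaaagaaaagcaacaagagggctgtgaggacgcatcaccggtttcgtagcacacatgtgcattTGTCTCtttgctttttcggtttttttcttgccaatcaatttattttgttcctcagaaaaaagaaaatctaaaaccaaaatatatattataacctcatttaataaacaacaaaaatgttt

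*XTH29* (AT4G18990) had 2.19 and 3.21 CPM in dexamethasone and 4.78 and 4.34 CPM in mock at 24 h, and its log2 fold change of -0.74 ± 0.27 (SE, n = 2 per group, edgeR adjusted p = 0.044) did not pass the threshold. A match of letters is a description of these windows and not a binding site.

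The other 14 XTH genes tested at 24 h were not called, and their adjusted p was at least 0.019. Their standard errors ran from 0.05 to 0.83, the largest for *XTH16*, which had 13 and 11 reads in dexamethasone and 4 and 3 in mock. *XTH11*, the third most abundant XTH gene by its mean over libraries, had 103 and 110.3 CPM in dexamethasone and 109 and 114 CPM in mock, and its log2 fold change was -0.06 ± 0.06 (SE, n = 2 per group, edgeR adjusted p = 0.57).

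**Figure D4:**
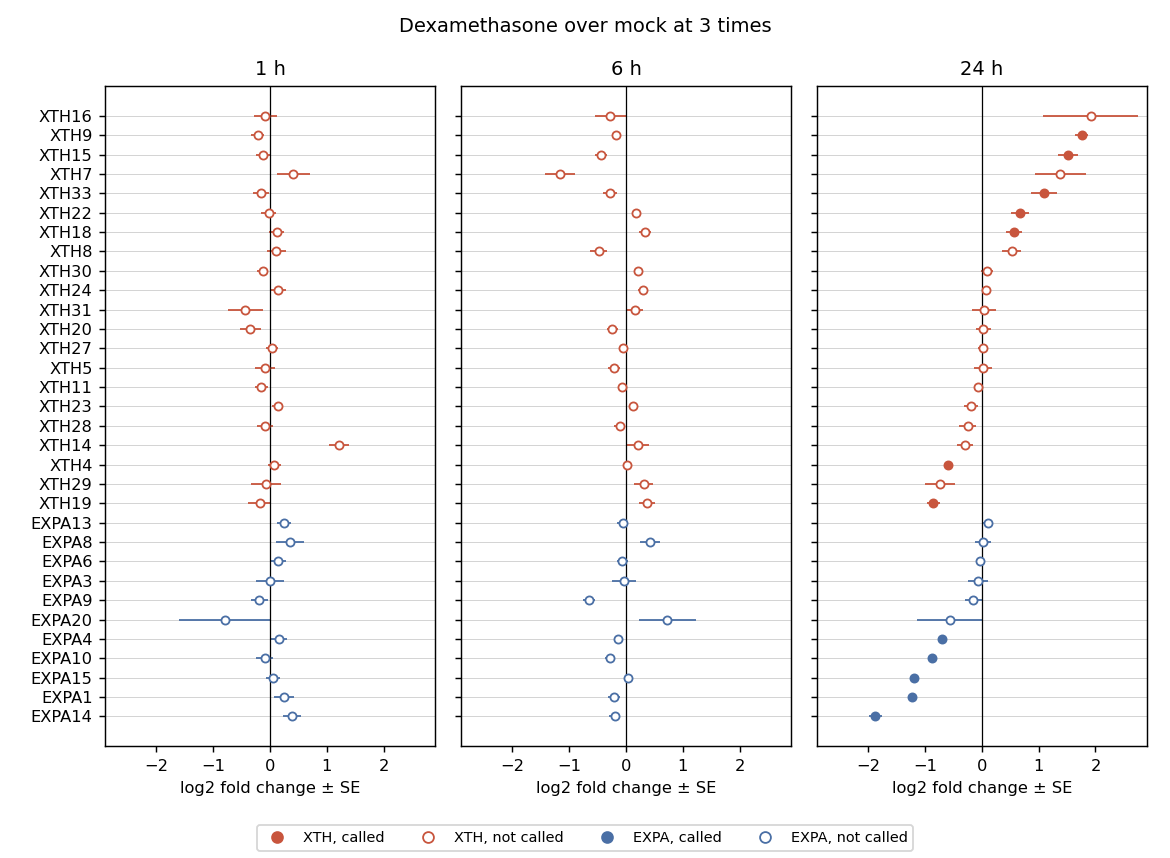
Log2 fold change of dexamethasone over mock with its SE at 1, 6, and 24 h, for the 32 members tested at 24 h. Filled points were called at an adjusted p under 0.01 and open points were not, with XTH genes in red above and alpha-expansins in blue below, and filled points are found at 24 h alone, from -1.88 in *EXPA14* to 1.76 in *XTH9*.

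At 1 and 6 h no member was called in dexamethasone against mock. The spread that edgeR shares over genes had 3.72 and 3.61 degrees of freedom at these times and 32.2 at 24 h. Numbers of calls therefore cannot be compared between times as a measure of the response. At 1 h 35 members were tested and 0 called, as were 0% of 20447 genes. An unadjusted p under 0.05 was found for 3 members, against 4.31% of all genes. DESeq2 called 1 member, *XTH14*, which was also called with the replicate letter as a block. It had 11.4 and 15.2 CPM in dexamethasone and 5.79 and 5.58 CPM in mock at 1 h. Its log2 fold change was 1.21 ± 0.18 (SE, n = 2 per group, edgeR adjusted p = 0.39). *XTH14* is known from root hairs and was named after its values were seen. Without replicate A of dexamethasone 1 h 5 members were called among 2019 of all genes, without replicate B 1 member among 124, and without either library of mock 1 h none. In such fits the lone library is assumed to vary like the pair of the other treatment.

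At 6 h 40 members were tested and 0 called, against 0.0048% of 20829 genes. An unadjusted p under 0.05 was found for 14 members, against 11.9% of all genes. Among these members *XTH12*, *XTH13*, *XTH25* and *EXPA18* had few reads. They passed the filter on low counts through the treatment where they were higher, so that their p is not read further. Without replicate A of mock 6 h 20 members were called among 8232 of all genes, and without replicate B 15 members among 2939 of all genes. In these fits the spread comes from the dexamethasone pair alone, whose replicates differed less than those of mock, so that the calls are not read further. Without either library of dexamethasone 6 h no member was called. DESeq2 called 1 member, *EXPA9*, which was named after its values were seen. It had 8.42 and 9.02 CPM in dexamethasone and 12.9 and 14.4 CPM in mock at 6 h, with a log2 fold change of -0.65 ± 0.10 (SE, n = 2 per group, edgeR adjusted p = 0.16). The alpha-expansins called at 24 h had log2 fold changes from -0.28 to 0.04 at 6 h.

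The difference between the response to dexamethasone at 24 h and that at 6 h was tested in a fit of all 12 libraries. Of 40 members tested, 4 had a higher response at 24 h, against 1.43% of 21241 genes, and 3 a lower one, against 3% of all genes. *XTH15* had a difference of 1.94 ± 0.20 on the log2 scale (SE, n = 2 per group, edgeR adjusted p = 0.00017) and *XTH9* one of 1.93 ± 0.15 (SE, n = 2 per group, edgeR adjusted p = 2.21e-05). *EXPA14* had a difference of -1.68 ± 0.20 (SE, n = 2 per group, edgeR adjusted p = 0.00051) and *EXPA15* one of -1.24 ± 0.14 (SE, n = 2 per group, edgeR adjusted p = 0.00036). These 4 genes kept their call with each library left out in turn.

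The other 3 were called less firmly, and without replicate A or B of dexamethasone 6 h, replicate A of mock 24 h or replicate B of dexamethasone 24 h only the 4 genes above were called. *XTH7* (AT4G37800) had a difference of 2.54 ± 0.42 (SE, n = 2 per group, edgeR adjusted p = 0.0034). At 24 h it had 1.98 and 1.88 CPM in dexamethasone and 0.622 and 0.868 CPM in mock, and at 6 h 0.387 and 0.446 CPM in dexamethasone and 0.973 and 0.898 CPM in mock, so that the treatments were apart in opposite directions at the 2 times. *XTH33* had a difference of 1.37 ± 0.24 (SE, n = 2 per group, edgeR adjusted p = 0.0047) and *XTH4* one of -0.63 ± 0.10 (SE, n = 2 per group, edgeR adjusted p = 0.0024). For the difference between 6 and 1 h, 0 of 40 members were called in either direction, against 0.0565% of 21241 genes higher and 0.00471% lower. In that comparison 8 members had an unadjusted p under 0.05, against 8.67% of all genes, and DESeq2 called 0.

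Between the mock groups both families moved in opposite directions. Tissue of all mock groups was harvested after the same 5 days on CIM, so that mock 24 h and mock 1 h differ in when the mock solution was applied. In mock 6 h against mock 1 h, 10 of 25 XTH genes tested fell and 0 rose, whereas 4 of 15 alpha-expansins rose and 0 fell, against 9.26% of 21241 genes fallen and 5.34% risen. In mock 24 h against mock 1 h, 16 XTH genes fell and 3 rose, and 2 alpha-expansins fell and 5 rose, against 14.3% of all genes fallen and 10.2% risen. The 2 that fell include *EXPA2*, which passed the filter on low counts through mock 1 h, where it was high. In mock 24 h against mock 6 h, 14 XTH genes fell and 1 rose, and 1 alpha-expansin fell and 4 rose, against 8.49% of all genes fallen and 6.79% risen. The median log2 fold change in mock 24 h against mock 1 h was -1.26 over the 25 XTH genes and 0.39 over the 15 alpha-expansins, and -1.22 and 0.39 with genes at 0 in one group set at a floor of 3 reads over the group. Over all genes tested the median was -0.0035. Without replicate A or replicate B of mock 24 h, 11 members in place of 20 were called for 24 h against 6 h. The 24 h libraries were also the shallowest. With all libraries drawn down to 18511462 reads, 24 members were called for 24 h against 1 h, and 26 at full depth. Shares over all genes are not given for these alternatives.

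The XTH genes that fell most were lower at each later time. *XTH22* had 8.17 and 9.50 CPM in mock 24 h, 106 and 97.2 CPM in mock 6 h and 417 and 382 CPM in mock 1 h. The log2 fold change was -5.49 ± 0.15 for 24 h against 1 h (SE, n = 2 per group, edgeR adjusted p = 3.14e-09), -3.52 for 24 h against 6 h, and -1.97 for 6 h against 1 h, all called. *XTH18* had 8.79 and 9.59 CPM in mock 24 h, 92.9 and 77.8 CPM in mock 6 h and 302 and 265 CPM in mock 1 h. Its log2 fold change was -4.94 ± 0.13 for 24 h against 1 h (SE, n = 2 per group, edgeR adjusted p = 3.14e-09), -3.21 for 24 h against 6 h, and -1.73 for 6 h against 1 h, all called.

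*XTH15* had 4.32 and 4.84 CPM in mock 24 h, 18.7 and 22.7 CPM in mock 6 h and 83.9 and 92.8 CPM in mock 1 h. For *XTH15* the log2 fold change was -4.26 ± 0.15 for 24 h against 1 h (SE, n = 2 per group, edgeR adjusted p = 1.23e-08) and -2.09 for 6 h against 1 h. *XTH16* had 0.156 and 0.137 CPM in mock 24 h, 0.811 and 0.709 CPM in mock 6 h and 12.8 and 10.5 CPM in mock 1 h. Its log2 fold change was -6.28 ± 0.32 for 24 h against 1 h (SE, n = 2 per group, edgeR adjusted p = 1.58e-07), -2.34 for 24 h against 6 h, and -3.94 for 6 h against 1 h. Without a library of mock 24 h the difference between 24 h and 6 h was not called, with adjusted p up to 0.023. *XTH19* fell by 2.07 on the log2 scale in mock 6 h against mock 1 h. *XTH10*, at 4 and 2 reads in mock 24 h, fell by 2.21 in mock 24 h against mock 6 h, a call that 9 of 11 alternatives with a value lost.

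Not every XTH gene followed. *XTH31* (AT3G44990), which encodes a xyloglucan hydrolase, rose, with 6.92 and 6.12 CPM in mock 24 h and 1.42 and 1.71 CPM in mock 1 h, a log2 fold change of 2.07 ± 0.28 (SE, n = 2 per group, edgeR adjusted p = 0.00018). *XTH14* rose in mock 24 h against mock 6 h, with 12.5 and 13.3 CPM in mock 24 h and 4.54 and 6.90 CPM in mock 6 h, a log2 fold change of 1.18 ± 0.19 (SE, n = 2 per group, edgeR adjusted p = 0.0012), which reached an adjusted p of 0.012 without a library of mock 24 h. *XTH29* rose in mock 24 h against mock 1 h, with a log2 fold change of 1.01 ± 0.23 (SE, n = 2 per group, edgeR adjusted p = 0.0060). The most abundant gene, *XTH24*, was called fallen in mock 24 h against both earlier mock groups, by 1.17 against 1 h and 1.18 against 6 h on the log2 scale. It had 315 and 322 CPM in mock 24 h and 745 and 704 CPM in mock 6 h. At 1 h its 754 and 694 CPM were close to those at 6 h, and it was not called between these times.

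The 4 alpha-expansins that rose in mock 6 h against mock 1 h also rose in both comparisons of mock 24 h. *EXPA15* had 180.0 and 162 CPM in mock 24 h, 68.3 and 74.0 CPM in mock 6 h and 24.2 and 27.4 CPM in mock 1 h. For *EXPA15* the log2 fold change was 2.74 ± 0.11 for 24 h against 1 h (SE, n = 2 per group, edgeR adjusted p = 3.05e-08), 1.27 for 24 h against 6 h, and 1.47 for 6 h against 1 h. *EXPA1* had 767 and 711 CPM in mock 24 h, 420 and 503 CPM in mock 6 h and 172 and 194 CPM in mock 1 h, and its log2 fold changes were 2.02 for 24 h against 1 h, 0.69 for 24 h against 6 h, and 1.34 for 6 h against 1 h. *EXPA10* rose by 1.41, 0.58 and 0.84 on the log2 scale in the same 3 comparisons. *EXPA4* rose by 0.70 for 24 h against 6 h and by 0.54 for 6 h against 1 h. For 24 h against 6 h the calls of *EXPA1* and *EXPA10* were lost without either library of mock 24 h or replicate A of mock 6 h, with adjusted p up to 0.051. For 6 h against 1 h the call of *EXPA4* was lost without either library of mock 1 h or replicate B of mock 6 h, with adjusted p up to 0.027, and that of *EXPA10* without replicate A of mock 1 h, with an adjusted p of 0.011.

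*EXPA8* rose to 11.8 and 13.8 CPM in mock 24 h, against 4.37 and 4.67 CPM in mock 1 h, with a log2 fold change of 1.51 ± 0.22 (SE, n = 2 per group, edgeR adjusted p = 0.00037). *EXPA17*, known from lateral root emergence, had 6 and 0 reads in mock 24 h and 52 and 67 reads in mock 6 h, with a fitted log2 fold change of -2.96 ± 0.64 (SE, n = 2 per group, edgeR adjusted p = 0.0061), a call that was lost without either library of mock 6 h, without replicate B of mock 24 h and in the fit of the 4 libraries compared. The fitted value rests on the library with 6 reads, and was -8.56 without replicate A of mock 24 h and -2.08 without replicate B. *EXPA2*, known from germinating seeds, had 1 and 0 reads in mock 24 h and 17 and 15 reads in mock 1 h. In CPM this is 6.17% of mock 1 h, with an exact 95% interval of 0.15% to 36.9% that covers counting error only. The call of *EXPA2* was lost in 8 of 9 alternatives that gave it a value. This gene passed the filter on low counts through mock 1 h, where it was high, so that its fall is not read further.

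**Figure D5:**
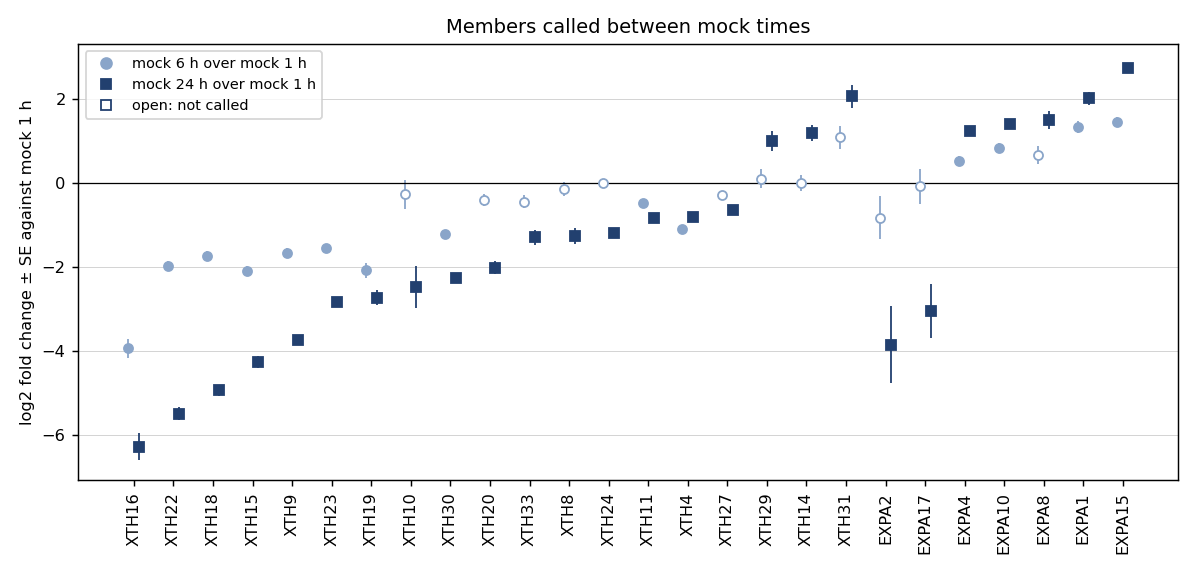
Log2 fold change with its SE against mock 1 h, for mock 6 h (circles) and mock 24 h (squares), for the 26 members called in either comparison, XTH genes first. Filled symbols were called and open symbols were not, and 16 XTH genes lie below 0 at 24 h, down to -6.28 in *XTH16*, while *EXPA4*, *EXPA10*, *EXPA8*, *EXPA1* and *EXPA15* lie above 0.

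The comparisons of dexamethasone 24 h with mock 24 h and of mock 24 h with mock 1 h share the mock 24 h libraries. These are the reference in the first and the tested group in the second. A deviation in these libraries alone would push the values to opposite signs. The values are therefore set side by side as a description, and a reversal by dexamethasone was not tested. *XTH9* had a log2 fold change of 1.76 for dexamethasone against mock at 24 h and of -3.74 for mock 24 h against mock 1 h, and *XTH15* of 1.51 and -4.26. *EXPA1* had -1.22 and 2.02, *EXPA15* -1.20 and 2.74, *EXPA10* -0.88 and 1.41, and *EXPA4* -0.71 and 1.23. *EXPA14* had -1.88 and 0.53, and was not called in the second comparison (edgeR adjusted p = 0.012). *XTH4* and *XTH19* fell in both, with -0.60 and -0.79 for *XTH4* and -0.85 and -2.72 for *XTH19*.

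Other wall genes were counted from fixed lists. Of 16 other expansins 6 were tested at 24 h, of which 1 rose and 3 fell in dexamethasone, against 6.77% of all genes risen and 8.76% fallen, shares that apply to each list at 24 h. *EXPB2*, a beta-expansin, had 11.6 and 10.7 CPM in dexamethasone and 49.5 and 51.0 CPM in mock, with a log2 fold change of -2.17 ± 0.10 (SE, n = 2 per group, edgeR adjusted p = 2.03e-18). *EXPB3* fell by 0.97 and *EXLB1* fell by 0.81 on the log2 scale, and *EXLA1* rose by 0.49. *EXLA1*, *EXLA2* and *EXLA3*, the expansin-like A genes, fell in mock 24 h against mock 1 h by 4.34, 4.81 and 4.84, in the direction of most XTH genes.

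Of 9 genes of xyloglucan synthesis and trimming, 2 rose after 24 h of dexamethasone and none fell, with log2 fold changes of 0.40 for the fucosyltransferase gene *FUT1* and 0.33 for the xylosyltransferase gene *XXT2*. In mock 24 h against mock 1 h 6 of the 9 fell, against 14.3% of all genes, among them the xylosyltransferase gene *XXT1* by 2.55, and the median log2 fold change was -0.83.

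Cellulose synthase genes of the primary and the secondary wall went in different directions. Of 8 genes of primary wall cellulose synthesis 7 were tested at 24 h, 4 rose in dexamethasone and none fell, with log2 fold changes of 0.18 for *CESA1*, 0.26 for *CESA3*, 0.25 for *CESA6* and 0.24 for *COB*. All 3 secondary wall genes fell, *CESA4* by 1.70, *CESA7* by 1.44 and *CESA8* by 2.25 on the log2 scale. *CESA8* had 3.29 and 3.29 CPM in dexamethasone and 15.8 and 15.8 CPM in mock at 24 h.

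Of 11 plasma membrane proton pump genes 10 were tested at 24 h, 2 rose and 2 fell in dexamethasone. *AHA4* rose by 1.40 and *AHA11* by 0.41, whereas the abundant *AHA2* fell by 0.49 and *AHA3* by 0.67 on the log2 scale. *AHA2* had 460.1 and 487 CPM in dexamethasone and 676 and 662 CPM in mock.

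Markers of callus founder cells and root primordia moved with treatment at 24 h. Of 8 such markers 6 fell, *LBD16*, *LBD17*, *LBD18*, *LBD29*, *WOX5* and *WOX11*, with log2 fold changes from -1.85 in *LBD29* to -0.38 in *WOX11*, and 1, *PLT1*, rose by 0.29. Their sum was 623 and 601 CPM in dexamethasone and 873 and 859 CPM in mock at 24 h. At 1 and 6 h it was 659 to 781 CPM in dexamethasone and 619 to 705 CPM in mock. Their part in the results for the alpha-expansins was not tested.

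The sums of markers of other cell types were lower, but over fewer genes. Single markers did not all follow, since in mock 6 h *RHD6* had 38.9 and 35.9 CPM and *LBD17* 17.3 and 15.8 CPM. The 6 root hair markers summed to 36.3 to 39.5 CPM in dexamethasone and 26.1 to 42.9 CPM in mock libraries, of which *RHD6* alone gave at least 25.4 CPM. The 5 endodermis markers summed to 0.313 to 0.835 CPM in dexamethasone and 0.484 to 1.44 CPM in mock, with *CASP1* at most 0.189 CPM. The 4 photosynthetic markers summed to 33.3 to 64.4 CPM in dexamethasone and 27.5 to 65.2 CPM in mock, and *LHCB1.1* was at most 0.0861 CPM. Of 3 photosynthetic markers tested after 24 h of dexamethasone *RBCS1A* rose by 0.48 on the log2 scale, and *PSBO1* and *LHCB2.1*, with 0.22 and -1.49, were not called. Of 2 root hair markers tested *RHD6* rose by 0.42, and *PRP3*, with -0.06, was not called.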

How the data were processed

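RNA was sequenced from 12 libraries of root explants. According to the submitters' processing notes, reads were trimmed with Trimmomatic 0.36, inspected with FastQC 0.11.5, mapped with STAR 2.5.3a to TAIR10 and counted with HTSeq 0.7.2. The deposited values are raw counts of reads per gene and library, without normalization or pooling, counted by the authors with no use of strand, and reads with several positions (6.90% to 22.2% of a library in these tallies) stay out of gene counts. The steps that follow started from these counts. HTSeq tallies that name no gene were left out.

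Genes with low counts were removed with filterByExpr, libraries were scaled by TMM, and quasi-likelihood tests of edgeR 4.0.16 were run with limma 3.58.1 in R 4.3.3. Dexamethasone was compared with mock over the 4 libraries of each time, and mock times and differences between responses over all 12 libraries. A gene was called where its p, adjusted by Benjamini and Hochberg over all genes tested, was under 0.01, and standard errors were taken from the test statistic. Samples were grouped by title. Depth was 18511462 to 66789371 reads on genes. The p-values rest on the spread between 2 libraries per group, moved toward a spread shared over genes. For dexamethasone against mock the shared spread had 32.2 degrees of freedom at 24 h, 3.72 at 1 h and 3.61 at 6 h. Positions, exon lengths and sequences came from RefSeq TAIR10.1, whose gene identifiers matched all 52 members. The fit was tested on simulated data with 200 changed genes.

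The members and lists were chosen with earlier results of these data known. Full statistics were given to members called in dexamethasone against mock, at most 12, to the 5 called members of largest change per direction elsewhere, and levels to the 3 most abundant of each family. Alternatives were DESeq2 1.42.0, RLE scaling, no filter, at least 10 reads in each library, a block for replicate letters, a cutoff of 0.05 for adjusted p, a log2 change of 1 or more in size, libraries drawn down to the smallest, a fit of all 12 or of the 4 libraries compared, and each library left out in turn.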

Additional observations from a re-analysis of the deposited data

Results flagged for a closer look

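For 7 members the response to dexamethasone at 24 h differed from that at 6 h by the interaction test over all 12 libraries. The response was higher at 24 h, on the log2 scale, by 2.54 for *XTH7*, 1.94 for *XTH15*, 1.93 for *XTH9* and 1.37 for *XTH33*. It was lower at 24 h, with differences of -1.68 for *EXPA14*, -1.24 for *EXPA15* and -0.63 for *XTH4*. In *XTH7*, *XTH9*, *XTH15* and *XTH33* both dexamethasone libraries were above both mock libraries at 24 h and below them at 6 h. These genes were picked by the interaction test on the same libraries, so that this order adds no separate support. No share over all genes is given for it. The call of *XTH7* was lost in 7 of 14 alternatives. With 2 libraries per group no library could be tested as an outlier.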

How the results depend on the processing

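For dexamethasone against mock at 24 h, 9 to 15 members were called in all alternatives other than a log2 fold change of at least 1 in size, which left 6 of 12. At 1 h DESeq2 and the replicate block called 1 member each, and with single libraries left out 0 to 5 were called. At 6 h DESeq2 called 1, and 0 to 20 were called with single libraries left out. For mock 24 h against mock 6 h, 31 members were called at an adjusted p under 0.05, and 11 to 17 with a library left out. For the response at 24 h minus 6 h, 12 were called at an adjusted p under 0.05, 11 by DESeq2, 13 without a filter on low counts, and 4 to 8 with a library left out. The cause of these differences was not tested. No shares over all genes are given for these counts, so that they describe the processing and are not results about the members. Counts for mock 6 h and mock 24 h against mock 1 h and for the response at 6 h minus 1 h stayed within 1.5 times of those reported, and no fold change of a named member changed sign. RLE scaling moved the median of all genes by under 0.1 on the log2 scale.

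The labels do not say what libraries of one letter share. Differences between A and B correlated at 0.51 between dexamethasone and mock at 1 h and 0.55 between mock 6 h and mock 1 h, but at -0.05 between dexamethasone and mock at 6 h, 0.02 at 24 h and -0.09 between mock 24 h and mock 1 h. With the replicate block 12 members were called at 24 h, 15 for mock 6 h against 1 h, 26 for mock 24 h against 1 h, 20 for mock 24 h against 6 h and 9 for the response at 24 h minus 6 h. Between mock 24 h and mock 6 h the correlation was -0.11, and the crossed pairing, added after seeing the data, gave 23 calls. For the counts with a block, too, no shares over all genes are given. At 24 h 20 members had too few reads to be tested.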
